A study of Homo sapiens with 16 samples.

Results

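The genes described here are 10 feedback genes of the RAS-ERK pathway: 6 dual-specificity phosphatases (DUSP1, DUSP2, DUSP4, DUSP5, DUSP6 and DUSP10), 2 Sprouty genes (SPRY1 and SPRY2) and 2 Sprouty-related genes (SPRED1 and SPRED2). They were chosen by symbol, and all 10 were found among the 58051 gene identifiers of the series. Of these 10, 8 had a mean normalized count of at least 10 over all libraries and were tested with 13765 genes in all. DUSP6 and SPRY1 were below that level and were not tested.

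RNA was sequenced from P493-6, an immortalised human B cell line carrying a MYC transgene that doxycycline represses and an EBNA2 protein that works only in the presence of estrogen. The high MYC cells had no additive, and the medium MYC cells were given 0.1 µg/mL doxycycline and 1 µM β-estradiol, starting 24 h ahead of the treatment. Cells of each level then received 100 nM IMP1088, which inhibits the N-myristoyltransferases, or the solvent DMSO for 24 h. This gave 4 groups of 4 libraries, all from a single line, and the series title asks how the inhibitor acts at different MYC levels. MYC level, doxycycline and estradiol cannot be told apart in this design. The labels do not say whether libraries of a group came from separate cultures, so p-values measure the spread between these libraries, which may be technical.

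RAS at the plasma membrane activates RAF, MEK and ERK in turn, and ERK induces genes whose products dampen the same cascade. Sprouty and SPRED proteins act upstream, on the activation of RAS and RAF, and SPRED proteins do so by bringing the RAS inactivator neurofibromin (NF1) to the membrane. DUSP proteins act downstream, by removing phosphates from ERK, JNK or p38. In B cells the cascade runs below the B cell receptor, and its feedback genes are often read as a record of recent ERK activity.

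The libraries held between 8755296 and 13858534 reads. MYC had a mean normalized count of 31649 in high MYC controls and 959 in medium MYC controls, and of 47542 and 1382 with the inhibitor at the same levels. The 6 B cell markers (MS4A1, CD79A, CD79B, PAX5, CD22 and CD74) were present in every library. Their summed normalized count was 39694 to 42029.8 in high MYC controls, 33459.7 to 34681 with the inhibitor at high MYC, 60801.5 to 64693 in medium MYC controls and 54951 to 56589 with the inhibitor at medium MYC, so it moved with both comparisons. In the same order of groups, the 5 T cell markers summed to 90.5 to 108, 57.2 to 78.8, 185 to 243 and 156 to 190.1, of which the defining genes CD3D, CD3E and CD3G had medians over all libraries of 0, 36.5 and 17.1. The 5 myeloid markers summed to 118 to 136, 108 to 119, 263 to 291 and 249 to 276, and the defining genes CD14, ITGAM and CSF1R had medians of 3.92, 131 and 1.79. The 4 non-haematopoietic markers summed to 133 to 155, 154 to 181, 262 to 294 and 297 to 349.7, with medians of 38.5 for EPCAM and 85.6 for COL1A1, the defining genes. KRT18, a further gene of that list, was at 0 throughout. These 3 sums were also higher at medium MYC than at high MYC. The part of any marker change in the results below was not tested, and in bulk RNA fewer cells of a type and less RNA per cell cannot be told apart.

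With IMP1088, 3 upstream inhibitors were called lower at both MYC levels: SPRED2, SPRY2 and SPRED1. At medium MYC the calls of SPRY2 and SPRED1 were lost when some single libraries were left out, and that of SPRED2 was not. SPRED3, a SPRED gene outside these 10, was called higher at medium MYC (log2 change 0.69), and some fits lost that call too. At high MYC 4 of the 8 tested feedback genes were called, all lower (the fourth was DUSP5), with a call meaning an adjusted p-value below 0.05 from limma, a linear model fitted across all genes. In that comparison 26.8% of all tested genes were called, 16.3% were called lower, and 26.7% had groups without overlap, as had 3 of the 8 feedback genes. At medium MYC 3 of the 8 were called, all lower, against 26.3% of all genes called, 14.6% called lower and 27.9% without overlap; 2 of the 8 did not overlap. At either level 0 of the 8 were called higher with the inhibitor by limma, 0 at an unadjusted p-value below 0.05 and 0 by edgeR or DESeq2, 2 count-based tests. Folds and log2 changes are on the scale of log2 of the normalized count plus 1.

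SPRED2 (ENSG00000198369, chromosome 2, 65310851 to 65432637, minus strand, GRCh38) encodes a membrane adaptor that limits RAS and RAF activation. In high MYC controls its normalized counts were 72.3, 76.4, 70.6 and 89.4 in replicates 1 to 4, and with the inhibitor they were 36.6, 24.4, 21.8 and 39.5. All 4 inhibitor libraries were far below all 4 controls. The mean went from 77.2 ± 8.50 to 30.6 ± 8.76 (SD, n = 4), and SPRED2 fell by 60.6%, a log2 change of -1.35 (SE 0.14, adjusted limma p-value 2.57e-07). In medium MYC controls the counts were 345, 342, 361 and 347, and with the inhibitor 227, 229, 254 and 257. Again the groups did not overlap, and the controls lay close together. The log2 change at medium MYC was -0.53 (SE 0.14, adjusted limma p-value 0.00696), where SPRED2 fell by 30.7%. These calls were kept under every alternative run and with any single library left out.

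SPRY2 (ENSG00000136158, chromosome 13, 80335976 to 80340951, minus strand) encodes a Sprouty adaptor that restrains growth factor signalling to RAS. Its normalized counts were 45.9, 43.8, 36.4 and 36.9 in high MYC controls and 21.5, 31.1, 16.6 and 21.8 with the inhibitor. The inhibitor libraries were all lower than the controls, with replicate 2 nearest to them. SPRY2 fell by 44.2% at high MYC, a log2 change of -0.84 (SE 0.15, adjusted limma p-value 2.51e-04). At medium MYC the controls were tightly grouped at 130.4, 130.1, 127 and 126, and the inhibitor libraries were at 79.2, 96.4, 102 and 96.8. These groups did not overlap either, and replicate 1 was the lowest inhibitor library. The log2 change was -0.46 (SE 0.15, adjusted limma p-value 0.0305). This medium MYC call was lost with no filter on low values (adjusted limma p-value 0.0584) and when any medium MYC control was left out (0.0633, 0.0648, 0.0551 and 0.0541 for replicates 1 to 4) or inhibitor replicate 1 (0.102).

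SPRED1 (ENSG00000166068, chromosome 15, 38252326 to 38357249, plus strand) encodes the partner that brings NF1 to the membrane. High MYC controls had normalized counts of 164, 154, 177 and 175, and inhibitor libraries 123, 149, 134 and 129.9. The groups stood apart, with inhibitor replicate 2 close below control replicate 2. SPRED1 fell by 20.2%, a log2 change of -0.32 (SE 0.08, adjusted limma p-value 0.00428). At medium MYC the controls were spread from 395 to 516 (516, 490.6, 395 and 438), and the inhibitor libraries had 382, 402, 383 and 361. Inhibitor replicate 2 was above control replicate 3, so these groups overlapped. The log2 change was -0.26 (SE 0.08, adjusted limma p-value 0.0195). This call was lost without medium MYC control replicate 1 (adjusted limma p-value 0.0856) or 2 (0.0694), or without inhibitor replicate 4 (0.0627).

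**Figure D1:**
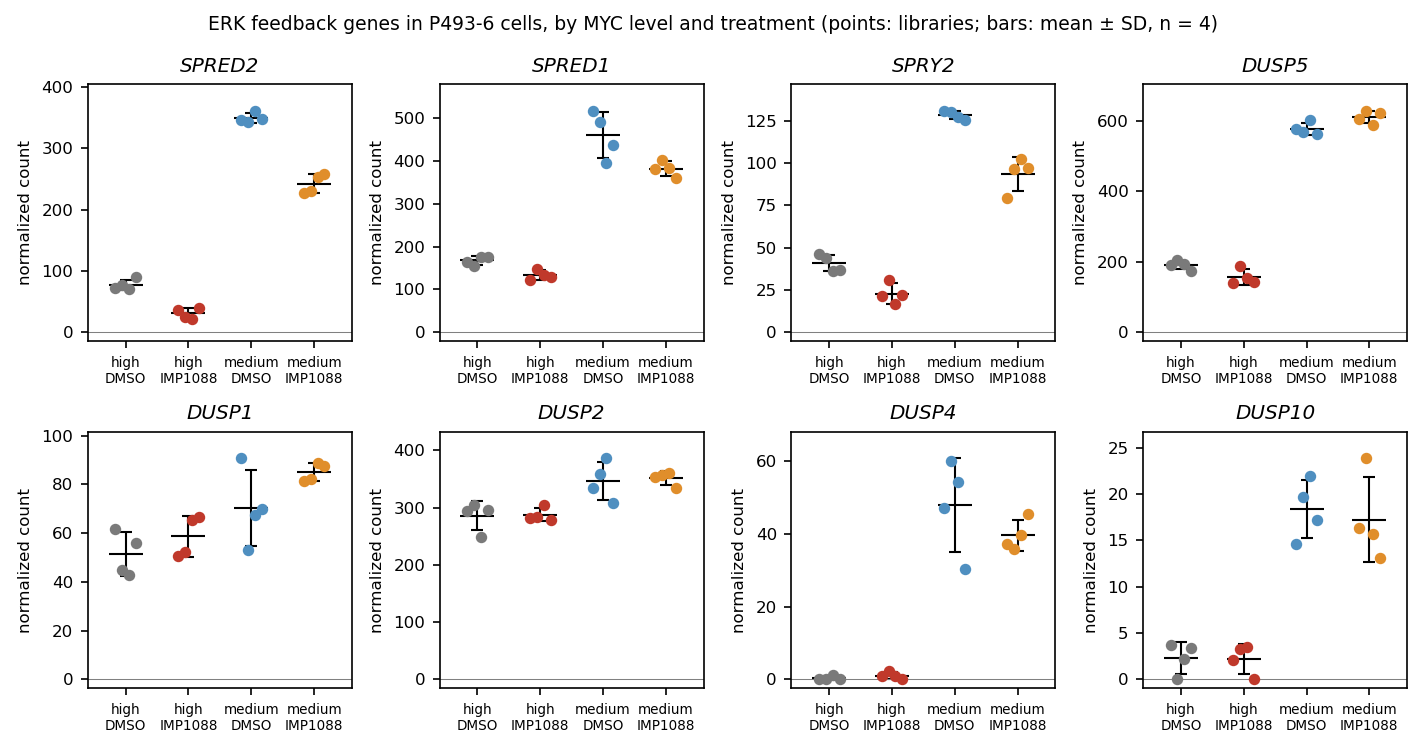
Normalized counts (vertical axis, starting near 0) of the 8 tested feedback genes in each library, by MYC level and treatment; points are libraries and bars give the mean ± SD of 4. SPRED2 and SPRY2 have inhibitor libraries below their controls at both MYC levels, and in every panel medium MYC means lie above high MYC means.

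The bases before the start of SPRED2 and SPRY2, the genes with the largest falls, are shown with those of DUSP1, which was not called with the inhibitor, so that the 3 can be compared. They come from RefSeq on GRCh38.p14, 5′ to 3′ on the gene's own minus strand, from the most upstream listed start and without bases in the gene's own exons: chr2:65432638-65432849 for SPRED2, chr13:80341127-80341376 for SPRY2 and chr5:172771196-172771445 for DUSP1. Capitals mark matches to the motifs searched.
SPRED2: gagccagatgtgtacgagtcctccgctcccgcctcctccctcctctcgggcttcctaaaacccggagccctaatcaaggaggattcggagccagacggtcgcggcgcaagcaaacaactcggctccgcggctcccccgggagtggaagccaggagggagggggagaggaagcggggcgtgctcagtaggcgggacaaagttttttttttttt
SPRY2: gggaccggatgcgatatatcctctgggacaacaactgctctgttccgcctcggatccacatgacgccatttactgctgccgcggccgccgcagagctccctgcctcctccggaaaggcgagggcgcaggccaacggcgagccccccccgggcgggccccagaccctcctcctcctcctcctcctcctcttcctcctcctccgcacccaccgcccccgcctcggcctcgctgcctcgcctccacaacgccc
DUSP1: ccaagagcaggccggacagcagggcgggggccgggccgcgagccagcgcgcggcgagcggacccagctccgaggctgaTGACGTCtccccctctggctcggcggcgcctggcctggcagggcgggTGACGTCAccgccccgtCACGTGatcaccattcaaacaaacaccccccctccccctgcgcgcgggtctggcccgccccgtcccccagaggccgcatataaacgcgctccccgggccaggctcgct

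RefSeq windows were matched for 8 of the 10 genes, all but DUSP4 and DUSP5, with 13 windows in all. The 250 bases before each start were searched on both strands for 6 motifs, which had the following shares in all 35116 windows of that length. GTGGGAA, the RBPJ motif through which EBNA2 acts, was in 5.43% of windows, and TGACTCA, the AP-1 motif, was in 4.20%. TGACGTC, the CRE core, was in 3.12%, and CCGGAAG, the ETS motif, in 8.52%. CACGTG, the E-box that MYC can bind, was in 6.34%, and the SRF CArG box in 1.16%. DUSP1 held the CRE core at 172 to 166 bases before its start and, overlapping on opposite strands, at 125 to 119 and 124 to 118, with an E-box at 108 to 103. DUSP2 held an E-box at 113 to 108 bases and 1 SPRY1 window an ETS motif at 67 to 61. The windows of SPRED2, SPRY2, SPRED1, DUSP6 and DUSP10 held none of these letters. Unlike the printed bases, the searched windows kept bases in the gene's own annotated exons. All 250 bases lay in such exons for SPRED1, DUSP6 and the SPRY1 window with the ETS motif. For these the search does not describe sequence upstream of the gene. Of 1 DUSP10 window 87 bases were exonic, and of 1 SPRED2 window 38. A match describes the sequence and was not tested as a site.

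DUSP5 (ENSG00000138166, chromosome 10, 110497838 to 110511544, plus strand) encodes a nuclear phosphatase selective for ERK. Its response to the inhibitor was called different between the MYC levels, a call lost when any of 8 libraries was left out. At high MYC the controls had normalized counts of 191, 204, 193 and 174 and the inhibitor libraries 139.8, 189, 154 and 142. All inhibitor libraries but replicate 2 were below every control, so the groups overlapped. DUSP5 fell by 18.4% there, a log2 change of -0.29 (SE 0.07, adjusted limma p-value 0.00536). With only the 2 high MYC groups in the fit this call was lost (adjusted limma p-value 0.0609). At medium MYC the controls had 578, 569, 602 and 562 and the inhibitor libraries 605, 627, 589 and 622. The groups overlapped, and the log2 change was 0.08 (95% interval -0.08 to 0.24, adjusted limma p-value 0.482).

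DUSP1 and DUSP2 were not called with the inhibitor at either MYC level. DUSP1 (ENSG00000120129, chromosome 5, 172768090 to 172771195, minus strand) is an immediate early gene whose nuclear phosphatase acts on p38, JNK and ERK. Its normalized counts were 61.8, 44.9, 43.0 and 55.9 in high MYC controls and 50.5, 52.1, 65.5 and 66.5 with the inhibitor. They were 90.7, 53.1, 67.4 and 69.8 in medium MYC controls and 81.6, 82.5, 88.8 and 87.7 with the inhibitor. At both levels the groups overlapped, and medium MYC control replicate 1 was above every other library. The log2 changes were 0.19 at high MYC (95% interval -0.13 to 0.51, adjusted limma p-value 0.400) and 0.30 at medium MYC (-0.02 to 0.62, 0.169). Without medium MYC control replicate 1 the medium MYC change was 0.43 and was called (adjusted limma p-value 0.0471).

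DUSP2 (ENSG00000158050, chromosome 2, 96143166 to 96145440, minus strand) encodes a nuclear phosphatase found mainly in blood cells. High MYC controls had normalized counts of 294, 304, 249 and 296 and inhibitor libraries 282, 284, 304 and 279. Medium MYC controls had 335, 359, 386 and 308 and inhibitor libraries 353, 358, 360.3 and 335. Each pair of groups covered nearly the same range. The log2 changes were 0.01 (95% interval -0.14 to 0.16, adjusted limma p-value 0.947) at high MYC and 0.02 (-0.12 to 0.17, 0.848) at medium MYC, so these intervals exclude changes as large as that of SPRED1 at either level.

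DUSP4 and DUSP10 were read almost only at medium MYC. DUSP4 (ENSG00000120875, chromosome 8, 29333064 to 29350668, minus strand), a nuclear phosphatase of ERK and JNK, had normalized counts of 0, 0, 1.10 and 0 in high MYC controls and 1.08, 2.22, 0.873 and 0 with the inhibitor. No high MYC library held more than 2 of its reads, so no size is given for a response there (adjusted limma p-value 0.202, and 0.0492 without inhibitor replicate 4). At medium MYC the counts were 46.9, 59.9, 54.3 and 30.4 in controls and 37.3, 35.8, 39.7 and 45.4 with the inhibitor, and these ranges overlapped. The log2 change at medium MYC was -0.23 (95% interval -0.98 to 0.51, adjusted limma p-value 0.690).

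DUSP10 (ENSG00000143507, chromosome 1, 221701424 to 221742176, minus strand), which acts on JNK and p38 rather than ERK, had a mean of 10.0 over all libraries, just inside the filter. Its normalized counts were 3.77, 0, 2.21 and 3.35 in high MYC controls and 2.15, 3.33, 3.49 and 0 with the inhibitor, from at most 5 reads a library. They were 14.6, 19.7, 21.9 and 17.2 in medium MYC controls and 16.3, 23.8, 15.7 and 13.1 with the inhibitor. The treatment groups overlapped at both levels, and the intervals were wide: -1.03 to 0.97 around a log2 change of -0.03 at high MYC and -1.10 to 0.89 around -0.10 at medium MYC. No response of DUSP10 could be detected with so few reads (adjusted limma p-values 0.975 and 0.908).

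DUSP6 and SPRY1, otherwise common readouts of ERK activity, were barely read. DUSP6 (ENSG00000139318, chromosome 12, 89347232 to 89353271, minus strand), a cytoplasmic phosphatase selective for ERK, had 7 reads in all, spread over 6 libraries with at most 2 in any. Its exons overlap those of AC024909.2 on the opposite strand, and whether counting used the strand is not given in the sources used here. SPRY1 (ENSG00000164056, chromosome 4, 123396795 to 123403760, plus strand), a Sprouty adaptor like SPRY2, had 6 reads in 5 libraries, again at most 2 in any. No library held more than the floor of 3 reads of either gene, and no group held more than 4 reads in sum, so no fold is given.

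**Figure D2:**
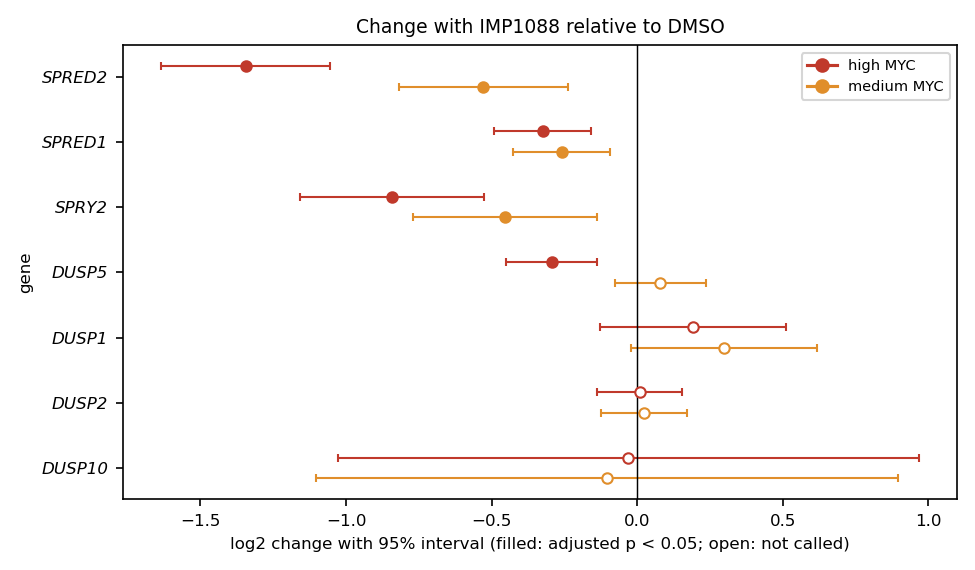
Log2 change with IMP1088 relative to DMSO (horizontal axis, bars are 95% intervals from limma) for 7 feedback genes at high and medium MYC; filled points passed the test. DUSP4 is not drawn because no high MYC library held more than 2 of its reads, and the 3 genes called at both levels are SPRED2, SPRED1 and SPRY2.

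The response itself differed between MYC levels for 2 feedback genes, SPRED2 and DUSP5, where 8.63% of all tested genes were called, 5.33% lower and 3.31% higher. Both were lower. Differences are the log2 change at high MYC minus that at medium MYC. SPRED2 had a difference of -0.82 (SE 0.20, adjusted limma p-value 0.0102). Across fits that each left out 1 library it lay between -0.95 and -0.67, with adjusted p-values up to 0.0253, and across the other alternatives the adjusted p-value was at most 0.0311. On the linear scale the SPRED2 mean was lower by 46.6 normalized counts at high MYC and by 107 at medium MYC. The larger proportional fall was thus the smaller one in normalized counts, which are relative to the other RNA of a library.

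DUSP5 had a difference of -0.37 (SE 0.11, adjusted limma p-value 0.0288), lower at high MYC and not called at medium MYC. This call was lost without the mean trend in the variance (adjusted limma p-value 0.0586) and when any of 8 libraries was left out. These were high MYC control replicate 2 (0.0648), high MYC inhibitor replicates 1 (0.0661) and 4 (0.0641), medium MYC control replicates 1 (0.0508), 2 (0.0563) and 4 (0.0598), and medium MYC inhibitor replicates 2 (0.0589) and 4 (0.0562).

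For SPRY2 the difference was -0.39 (95% interval -0.83 to 0.06, adjusted limma p-value 0.319), so a larger fall at high MYC was not shown. For SPRED1 it was -0.06 (-0.30 to 0.17, 0.812), for DUSP1 -0.11 (-0.56 to 0.35, 0.845) and for DUSP2 -0.01 (-0.22 to 0.19, 0.961). The intervals of SPRED1 and DUSP2 leave room for differences of up to 0.30 and 0.22 in size. Over the 6 feedback genes with a mean of at least 10 in every group, the median log2 change was -0.31 at high MYC and -0.12 at medium MYC, and the median difference was -0.24. The medians over all tested genes were -0.02, -0.01 and -0.02.

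At medium MYC the 8 tested feedback genes had higher normalized counts than at high MYC, with and without the inhibitor. Normalized counts are relative to the other RNA of a library, and whether RNA per cell differed between MYC levels was not tested. In controls all 8 tested genes were called higher, against 76.2% of all tested genes called, 38.9% higher and 37.3% lower. With the inhibitor all 8 were again called higher, against 77.5% called, 39.7% higher and 37.8% lower. DUSP4 and DUSP10 reached the filter only through their medium MYC libraries and so had to differ in this direction. The 6 others had a median log2 change of 1.52 in controls and 1.74 with the inhibitor, beside 0.02 over all genes in each. Groups did not overlap for 7 of the 8 genes in controls (69.2% of all genes) and for all 8 with the inhibitor (72.6%). Both counts include DUSP4 and DUSP10, and the gene that overlapped in controls was DUSP1. The control and inhibitor comparisons use different libraries, but each shares its libraries with the treatment comparisons above.

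Among the upstream inhibitors, SPRED2 rose most, by a log2 change of 2.17 (SE 0.14, 4.49-fold) in controls and 2.98 (7.91-fold) with the inhibitor. Its control libraries held 70.6 to 89.4 normalized counts at high MYC and 342 to 361 at medium MYC. SPRY2 rose by 1.64 and 2.02, about 3.11-fold and 4.06-fold. SPRED1 rose by 1.45 and 1.51, the closest pair of values among these 3.

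Among the phosphatases, DUSP5 rose by 1.60 (SE 0.07, 3.02-fold) in controls and 1.97 (3.92-fold) with the inhibitor. DUSP1 rose by 0.43 in controls (adjusted limma p-value 0.0150), where the groups overlapped, and by 0.54 with the inhibitor (0.00328), where they did not. The DUSP1 call in controls was lost under quantile normalization, which gave 0.24 (adjusted p-value 0.152). It was also lost without high MYC control replicate 3 (0.0553) or medium MYC control replicate 1 (0.0800). DUSP2 rose by 0.28 and 0.29, the smallest changes in the list (adjusted limma p-values 0.00126 and 7.70e-04).

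DUSP4 went from 1 read in all high MYC controls to 214 in medium MYC controls. After scaling for depth this is a ratio of 192 with an exact 95% interval of 34.0 to 7604, which covers counting error only. With the inhibitor it had 4 and 151 reads, a ratio of 39.0 (14.9 to 145). The 2 intervals overlap widely. DUSP10 had 10 and 83 reads in controls, a ratio of 7.43 (3.85 to 16.1), and 9 and 66 with the inhibitor, a ratio of 7.57 (3.76 to 17.3).

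**Figure D3:**
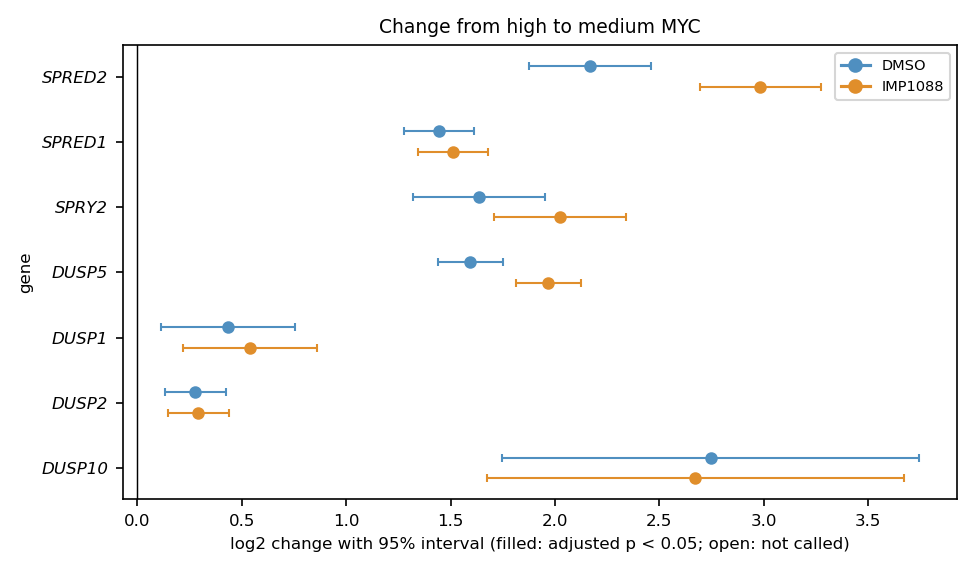
Log2 change from high to medium MYC (horizontal axis, bars are 95% intervals from limma) for 7 feedback genes in DMSO and IMP1088 libraries; every point is filled because every gene was called. DUSP4 is not drawn because it was at the floor at high MYC. DUSP1 and DUSP2 have the smallest changes and DUSP10 the widest intervals. DUSP10 passed the filter only through its medium MYC libraries, so its direction was fixed.

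Levels of different genes were compared as normalized counts per kilobase of annotated exon. The length was that of all annotated exons of a gene merged. Which transcripts these cells express was not tested, so the order of genes rests on these lengths. In high MYC controls DUSP2 was highest at 148 ± 12.8, followed by DUSP5 at 73.0 ± 4.74 (SD, n = 4). DUSP1 at 25.5 and SPRED1 at 20.3 overlapped in range, as did SPRED2 at 15.0 and SPRY2 at 13.4. DUSP10, SPRY1, DUSP4 and DUSP6 were at 0.800 or below. In medium MYC controls DUSP5 was first at 221 ± 6.65 and DUSP2 second at 179.5 ± 17.3 (SD, n = 4), without overlap, so the leading pair had changed places. SPRED2 followed at 67.7 and SPRED1 at 55.7, then SPRY2 at 42.2 and DUSP1 at 34.8, which overlapped. DUSP4 at 6.60 and DUSP10 at 6.30 could not be ordered.

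Per kilobase, SPRED2 was above SPRED1 in medium MYC controls and overlapped it with the inhibitor. At high MYC SPRED1 was above SPRED2 with and without the inhibitor. The order at medium MYC depends on the exon lengths used, 8.26 kb for SPRED1 and 5.15 kb for SPRED2. Before division by length, SPRED1 was the higher at medium MYC, with means of 460 against 349 in controls and 382 against 242 with the inhibitor. At high MYC the order with the inhibitor was DUSP2 at 148.5, DUSP5 at 59.8, DUSP1 at 29.1 and SPRED1 at 16.2 per kilobase, each without overlap with the next. SPRY2 at 7.49 and SPRED2 at 5.93 followed and overlapped. At medium MYC SPRED2 at 46.9, SPRED1 at 46.3 and DUSP1 at 42.2 overlapped in range, each with the next, whereas DUSP5 at 234 and DUSP2 at 182 stayed above them.

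The other genes of these families and of the pathway were read from lists by role. Of the 11 other DUSP, SPRY and SPRED genes, 7 were tested. With the inhibitor 1 fell at high MYC, and 2 fell and 1 rose at medium MYC, with list medians of -0.05 at both levels. Of all tested genes 26.8% and 26.3% were called at these levels, the shares beside which this and the following lists stand. DUSP3, a small phosphatase of ERK and JNK, fell at both, with log2 changes of -0.32 and -0.36 (adjusted limma p-values 0.00886 and 0.00346). DUSP7, an ERK phosphatase of the DUSP6 type, fell by 0.33 on the log2 scale at medium MYC (adjusted limma p-value 0.00328), and its change at high MYC was 0.00 (0.982). SPRED3, the third SPRED gene, rose by 0.69 at medium MYC, from a mean of 20.8 to 34.0 normalized counts (adjusted limma p-value 0.0198). That call was lost with no filter and without medium MYC control replicate 1 or 3 or inhibitor replicate 3 (adjusted p-values up to 0.0629). The difference in response was called for 0 of the 7 by limma, edgeR and DESeq2, although 1 higher and 2 lower had an unadjusted limma p-value below 0.05. The difference of DUSP7 (0.33, adjusted limma p-value 0.0716) was called in 5 of 28 alternatives. These were quantile normalization, the GC correction and the fits without high MYC control replicate 1, medium MYC control replicate 2 or medium MYC inhibitor replicate 1 (adjusted p-values up to 0.0442). Between MYC levels in controls 3 were higher and 2 lower at medium MYC, beside 38.9% higher and 37.3% lower over all tested genes. DUSP16, a JNK phosphatase, rose by 3.07 and DUSP22 by 1.07, whereas DUSP7 fell by 1.55 on the log2 scale.

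All 24 RAS-ERK cascade genes were tested. With the inhibitor at high MYC 11 were called, all lower, with a list median of -0.11; edgeR called 1 higher. At medium MYC 4 were lower and 1 higher, with a median of -0.07. At high MYC RASGRP1, an exchange factor that activates RAS, fell by 0.52 on the log2 scale, the scaffold KSR1 by 0.38 and the kinase ARAF by 0.25 (adjusted limma p-values 9.38e-06, 1.54e-06 and 2.14e-04). RASAL3, which switches RAS off, fell at both levels, with log2 changes of -0.37 and -0.52 (adjusted limma p-values 5.24e-04 and 1.03e-05). At medium MYC RASA1, which also switches RAS off, fell by 0.22 on the log2 scale and the scaffold LAMTOR3 rose by 0.38. The differences in response of ARAF, RASAL3, RASA1 and LAMTOR3 were not called (adjusted limma p-values 0.205, 0.431, 0.411 and 0.0730). The responses of RASGRP1 and KSR1 differed between levels (-0.66 and -0.35, adjusted limma p-values 1.15e-04 and 8.03e-04). In controls 16 were higher and 4 lower at medium MYC, with a median of 0.33. Of all tested genes 76.2% were called in this comparison, 38.9% higher and 37.3% lower. RASA1 and RASGRP3 rose by 2.61 and 1.93, and RASGRP2 fell by 1.11 on the log2 scale.

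Of 19 ERK-responsive genes other than the feedback genes, 14 were tested, MYC itself among them. With the inhibitor 3 rose and 1 fell at high MYC, and 4 rose and 1 fell at medium MYC, with list medians of 0.12 and 0.19. These are 4 and 5 of 14 genes called, close to the shares of 26.8% and 26.3% over all genes. The immediate early transcription factor EGR1 had log2 changes of 0.44 and 0.55 (adjusted limma p-values 0.0481 and 0.0140). Its call at high MYC was lost in 12 of 20 alternatives (adjusted p-values up to 0.231), and that at medium MYC without control replicate 2 (0.0571). The pseudokinase gene TRIB1 rose by 0.18 at high MYC, a call lost without control replicate 3 (adjusted limma p-value 0.0503; 0.0134 with it). IER2 and MCL1 rose by 0.38 and 0.24 at medium MYC. MYC, of which these cells carry a transgene, rose by 0.59 at high MYC and 0.53 at medium MYC. It is counted in the numbers and medians of this list. ZFP36, which destabilises inflammatory mRNAs, fell at both levels, with log2 changes of -0.33 and -0.30 (adjusted limma p-values 0.00200 and 0.00463). The response differed for TRIB1 (0.29, adjusted limma p-value 0.0127) and MCL1 (-0.19, 0.0166, and 0.0665 without the mean trend). In the MYC-level comparison 5 of the 14 (EGR2, EGR3, FOS, IER3 and MAFF) had a mean under 10 in at least 1 group. EGR2, EGR3, IER3 and MAFF passed the filter only through their medium MYC libraries and so had to be higher there. Of the 9 with a mean of at least 10 in every group, 7 were higher and 2 lower at medium MYC in controls. The median of these 9 was 0.67. Of all tested genes 38.9% were higher and 37.3% lower in this comparison. The lower genes were KLF2 and MYC. MYC level defines the groups, so the direction of MYC was fixed by the design. TRIB1 rose by 1.76.

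The 11 JNK and p38 genes, which code for these kinases, their activators and a substrate, were all tested. With the inhibitor 6 fell at high MYC, and 4 fell and 1 rose at medium MYC, with list medians of -0.17 and -0.12. Over all genes 16.3% and 14.6% were called lower at these levels. MAP2K6, which activates p38, fell by 0.90 and 0.93 on the log2 scale (adjusted limma p-values 1.21e-04 and 7.25e-05), and p38α itself (MAPK14) by 0.23 and 0.26. MAPKAPK2, a p38 substrate, fell by 0.21 and 0.37 on the log2 scale (adjusted limma p-values 0.00312 and 1.02e-05). Only MAP3K5 of the 11 differed in response, by -0.32 (adjusted limma p-value 0.0117). In controls 7 were higher and 2 lower at medium MYC, beside 38.9% higher and 37.3% lower over all tested genes, and MAPK8 (JNK1) rose by 1.72.

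**Figure D4:**
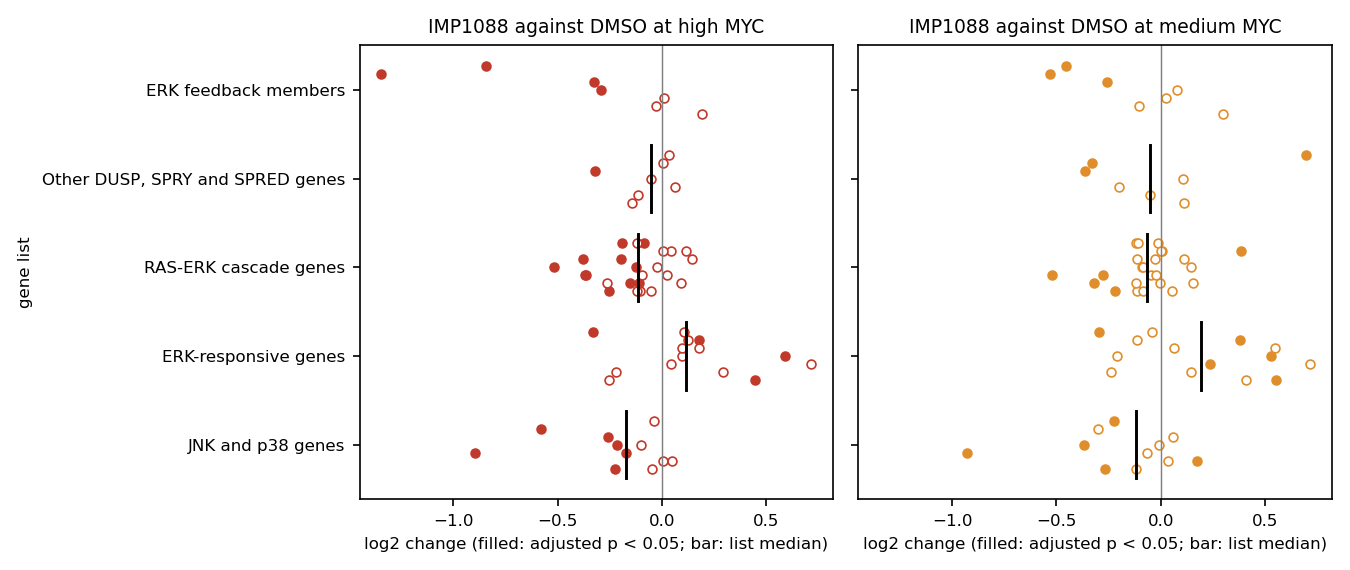
Log2 change with IMP1088 (horizontal axis) at high and medium MYC for the feedback genes without DUSP4 and for the tested genes of 4 related lists; each point is a gene, filled where called, and black bars are list medians. SPRED2 at -1.35 is the leftmost point of the high MYC panel, followed by MAP2K6 of the JNK and p38 list at -0.90 and SPRY2 at -0.84, and the ERK-responsive list has its medians above 0.

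Genes whose pattern was most like that of SPRED2 and DUSP5 were sought among 10573 genes with a mean of at least 50. Likeness was Pearson's r over all 16 libraries after each MYC level's mean was subtracted, so it reflects the response to the inhibitor and the library-to-library spread. For SPRED2 the closest were CCR2 (r = 0.97), SNX22 (0.96) and INPP4A (0.96), and their own log2 changes with the inhibitor at high MYC were -1.38, -0.64 and -0.33. For DUSP5 the closest were GCSAM (0.91), ALDH6A1 (0.89) and GTPBP2 (0.85), with changes at high MYC of -0.37, -0.44 and -0.35. The points share libraries and depth, and the values are a description without a test.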

How the data were processed

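RNA of 16 libraries was measured as expression per gene. The authors deposited one table of normalized counts, a non-negative signal. The submitters' processing notes name STAR 2.5.2a, RSEM 1.2.31, DESeq2 1.16.1 and the build GRCh38; the annotation and use of strand are not given in the sources used here. Within each library 100% of values were whole multiples of a single step (tolerance 1e-06), so whole counts could be recovered. These are called reads here. Whether they were rounded from RSEM estimates is not given in the sources used here. In 2 libraries this step is close to 1.

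The main test was limma 3.58.1 (R 4.3.3) on log2 of the normalized count plus 1, for genes with a mean of at least 10, with a mean trend. It used 4 group means over all libraries and Benjamini-Hochberg adjustment over all 13765 tested genes, two-sided, with calls under 0.05. The limma standard errors came from the spread between libraries, without weights for library totals. Counting intervals and the floor of 3 reads describe counting error alone, since PCR copies could not be told from separate molecules. Low counts were compared by exact 95% intervals of the ratio. Positions are from GENCODE 29, matched by identifier, and symbols were matched for 56948 identifiers.

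Alternatives covered scaling, pseudocount, filter, variance trend, compared groups only, replicate block, edgeR 4.0.16 and DESeq2 1.42.0 on recovered reads, and leaving out each library. A GC correction was chosen after seeing the data. Fits were tested on simulated data. The members and lists were chosen with earlier results of these data known. All 10 members were named, with up to 3 tested genes of smallest p-value per list and comparison; not every gene the rule selects is printed, and EGR1 with the inhibitor was added because it is a standard ERK-induced gene, after its values were seen. Some genes of the marker and pathway lists are not reported here, and the lists were counted without them.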

Additional observations from a re-analysis of the deposited data

Results flagged for a closer look

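SPRED2 and DUSP5 responded differently to the inhibitor at the 2 MYC levels, by the test of the difference itself. SPRED2 had a difference in log2 change, high minus medium MYC, of -0.82, from falls of 1.35 and 0.53 on the log2 scale. DUSP5 had a difference of -0.37, with a fall at high MYC and a change of 0.08 at medium MYC that was not called. The SPRED2 difference kept its call in every alternative. That of DUSP5 lost it without the mean trend (adjusted limma p-value 0.0586) and when any of 8 libraries was left out. Among the 30 sets of 4 libraries examined for the tested genes, none held a library past the cut-off of Dixon's outlier test. That test compares the gap to the nearest library with the range, and its cut-off for 4 values is strict. Sets at the floor of 3 reads were left out. Some libraries short of the cut-off still stood apart. For DUSP2 at high MYC, control replicate 3 was at 249 against 294 to 304 in the other controls. Inhibitor replicate 3 was at 304 against 279 to 284.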

How the results depend on the processing

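No call of a member reversed under any alternative run. Of the 874 member changes recomputed, 828 kept direction and side of the threshold, 22 lost their call and 2 gained one. Another 22 turned sign without being called in either fit; these belong to DUSP1, DUSP2, DUSP10 and SPRED1 and lie between -0.43 and 0.46. The lost and gained calls are given with their genes. The number of members called for the difference in response was 1 without the mean trend (2 in the main analysis). A filter at a mean of 100 left 4 members called in each MYC-level comparison (8 in the main analysis), because fewer genes were tested. Leaving out single libraries gave 4 to 5 members called at high MYC, 1 to 3 at medium MYC (1 without control replicate 2), 1 to 2 for the difference (1 without any of the 8 libraries named with DUSP5), 7 to 8 for MYC level in controls and 8 to 8 with the inhibitor. Over all genes, the GC correction moved the counts most upward for the difference (1643 against 1188), and quantile normalization gave 1727 higher and 1770 lower at high MYC (1442 and 2247 in the main analysis). At medium MYC equal library totals gave 1962 higher and 1659 lower (1606 and 2012 in the main analysis). With the replicate number as a block, 3496, 3442, 1026, 10256 and 10469 genes were called (3689, 3618, 1188, 10485 and 10664 without it) and no member call changed. Residuals of same-numbered libraries correlated at means of -0.0715, -0.0235, 0.0243 and -0.0182 in the 4 comparisons of a pair of groups. Of 4 replicate numbers, 0, 1, 1 and 1 matched best with their own. Single same-numbered pairs lay between -0.154 (replicate 2, high MYC control and inhibitor) and 0.239 (replicate 4, high and medium MYC controls). Whether same-numbered libraries shared a culture or batch was not tested. Depth limited DUSP4 and DUSP10 at high MYC and DUSP6 and SPRY1 everywhere; with no filter, neither of the last 2 was called.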
